A study of Mus musculus with 7 samples.

Results

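Lhx6, Sox6, Satb1 and Maf encode transcription factors known from interneurons born in the medial ganglionic eminence, the embryonic source of the SST and PV interneurons of the cortex. The 4 genes were taken by name from the 25871 gene columns of the single-nucleus count tables, and the 193 reference regions of the ATAC-Seq count table that lie in their gene bodies or within 100 kb of them were added, out of 323369 regions in all. Single-nucleus RNA-Seq (inDrops, a droplet method that counts unique molecular identifiers, UMIs) was available for 1 sample of nuclei from the primary visual cortex (V1) of C57BL/6J mice of 6 to 10 weeks, injected with the SST PESCA AAV9 library, a pool of viral reporters. It was collected as 10 libraries in 2 sets of 5, and by the study's methods the nuclei came from 2 animals with 5 libraries each, although no label ties a set to an animal. ATAC-Seq was available for 6 samples of whole cortex from mice of 6 to 12 weeks that were not injected, 2 each of SST, PV and VIP nuclei. These came from the F1 offspring of Sst-IRES-Cre, Pv-Cre or Vip-IRES-Cre mice crossed with SUN1-2xsfGFP-6xMYC, a Cre-dependent tag of the nuclear membrane by which nuclei are pulled out (INTACT). A nucleus carries the tag once Cre has been active in the cell or in its precursors, so each group is defined by the driver and not by the protein it is named after. The labels do not give the animals, but by the study's methods both samples of a group were separate experiments, each with nuclei of 1 animal.

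The ganglionic eminences of the embryonic forebrain give rise to nearly all cortical interneurons. In the medial eminence the homeodomain factor Nkx2-1 switches on Lhx6, a LIM-homeodomain factor that cells keep as they migrate and mature into SST and PV neurons. Sox6, a factor of the SoxD group, and Satb1, a chromatin organiser, are known to act downstream of Lhx6 in positioning and maturation of these cells, and Maf, a basic leucine zipper factor, is known for its part in the generation and survival of SST and PV neurons. VIP interneurons come from the caudal eminence, which is known for factors such as Prox1 and Nr2f2. Sox6 is also expressed in precursors of oligodendrocytes, Satb1 in lymphocytes and in excitatory neurons of the cortex, and Maf in macrophages and microglia.

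Nuclei were sorted into gates by the UMIs of a few genes, and each gate is called here by its gene. The Sst gate held the nuclei with 2 or more UMIs of Sst and fewer than 2 of Pvalb and Vip, and the Pvalb and Vip gates were built in the same way. An Npy gate, a Gad gate for the remaining Gad1 or Gad2 nuclei, an Excitatory gate and 7 glial, vascular and immune gates were set from marker lists. Of 32335 nuclei with more than 200 UMIs, 962 fell in the Sst gate, 322 in the Pvalb gate, 435 in the Vip gate, 372 in the Npy gate, 955 in the Gad gate and 13087 in the Excitatory gate, while 12121 were in no gate. Median depth was 859.5 UMIs a nucleus in the Sst gate, 1364.5 in the Pvalb gate, 658 in the Vip gate and 978 in the Excitatory gate, and the 10 libraries held 2496224 to 3041931 UMIs each. Gad1, the GABA-synthesizing enzyme that marks interneurons, stood at 8.40 UMIs per 10000 UMIs in the Sst gate, 24.0 in the Pvalb gate and 16.9 in the Vip gate. A UMI of an excitatory marker was present in 31.8% of the nuclei of the Sst gate, 32% of the Pvalb gate and 34% of the Vip gate, but in 62.5% of the Gad gate, whose values are given with that limit. The part of these other cells' RNA in the levels below was not tested beyond the values given without such nuclei.

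Libraries of a set shared barcodes. Barcode names recurred between consecutive libraries of a set 339 to 821 times a pair, against 51 to 210 times in the other 37 pairs. Among recurring names with both nuclei in gates other than the Excitatory gate, 82.1% were in the same gate for consecutive libraries and 28.1% for other pairs. The 10 libraries are therefore not independent, and the levels and ratios below were also computed without the nuclei affected, which were 25.8% of all, and are given that way where it matters for the statement. Since the nuclei form 1 sample, the gates were compared by sums of UMIs with exact Poisson intervals, and by the spread over libraries, with no test; the intervals cover counting error only. The level of a gene is given throughout as its UMIs per 10000 UMIs of all genes, summed over the nuclei of a gate.

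**Figure D1:**
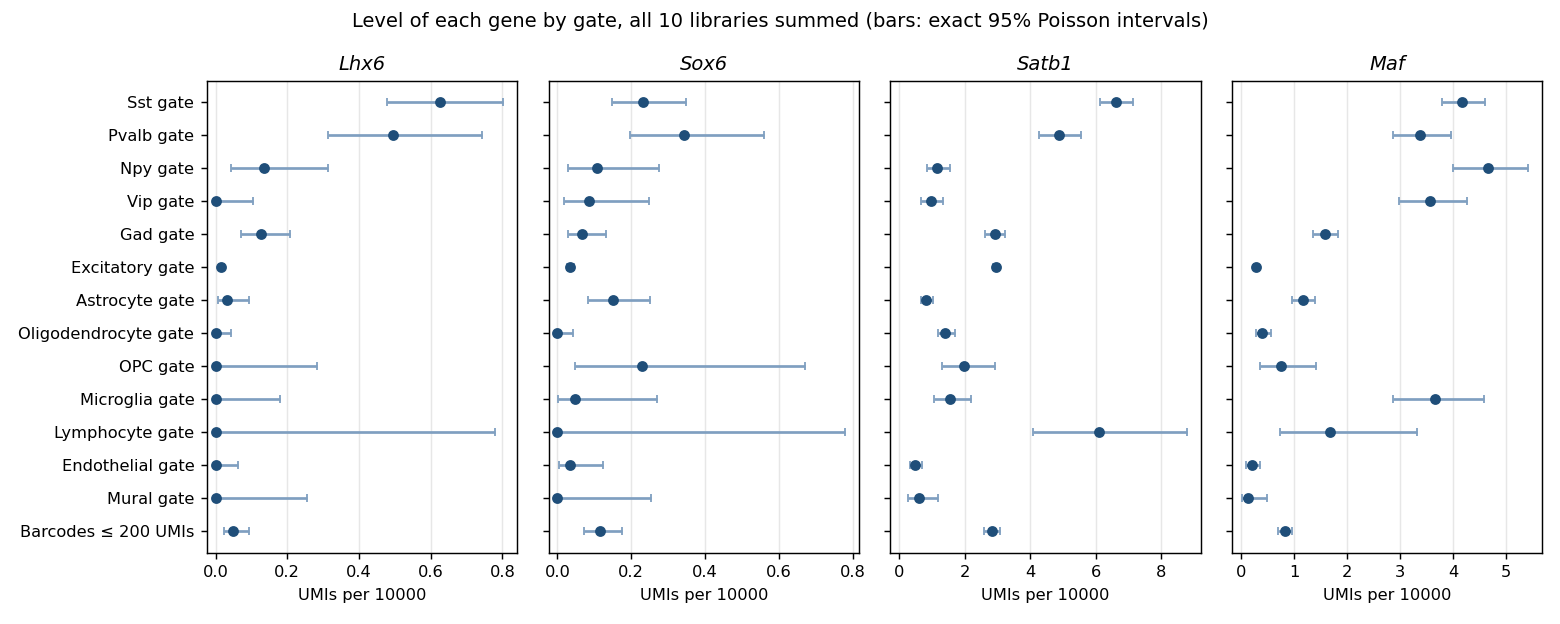
Level of Lhx6, Sox6, Satb1 and Maf (UMIs per 10000 UMIs, linear axes that differ between genes) in each gate and in barcodes of 200 or fewer UMIs, summed over the 10 libraries, with exact 95% Poisson intervals as bars. Lhx6 stood at 0.625 and 0.495 in the Sst and Pvalb gates and at 0 in the Vip gate, while Maf stood at 3.57 in the Vip gate, near its level in the Sst gate.

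Lhx6 was detected in the Sst and Pvalb gates and not at all in the Vip gate. In the Sst gate 62 UMIs were counted, a level of 0.625 (0.479 to 0.801), with a lowest library of 0.286, a median of 0.434 and a highest of 1.4. In the Pvalb gate 23 UMIs gave 0.495 (0.314 to 0.743), from 0 in 3 libraries to 1.24, with a median of 0.424. In the Vip gate 0 UMIs were counted over 435 nuclei, which allows a level of up to 0.0850 at 3 counts. Every library was thus above 0 in the Sst gate, and every library was at 0 in the Vip gate. Against this floor of 3 counts over the gate, the Lhx6 level was at least 7.35-fold higher in the Sst gate and at least 5.82-fold higher in the Pvalb gate. With the counting error of both gates, the exact 95% limits of these ratios began lower, at 5.80 and 4.36. Without nuclei whose barcodes were shared between libraries, the values against the floor were 5.89 and 3.64, and the limits began at 4.60 and 2.59. The values against the floor were also lower without nuclei with an excitatory UMI and in each library set alone, as given at the end. The Sst and Pvalb gates did not differ beyond counting error, with a ratio of 1.26 (0.772 to 2.14).

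In the remaining gates Lhx6 was near or at 0. The Npy gate stood at 0.135 (5 UMIs), the Gad gate at 0.126, the astrocyte gate at 0.0320 and the Excitatory gate at 0.0148 (21 UMIs in 13087 nuclei). No UMI was counted in the oligodendrocyte, OPC, microglia, endothelial, mural or lymphocyte gates. The intervals of neighbours in this order overlapped, including those of the Pvalb and Npy gates, but the Sst gate was 4.64-fold above the Npy gate (1.88 to 14.8) and 42.1-fold above the Excitatory gate (25.3 to 72.8). Barcodes of 200 or fewer UMIs, which were left out of the gates, stood at 0.0494. How much of their content was free RNA was not tested. By share of nuclei, 5.93% of the Sst gate (4.52% to 7.61%), 6.21% of the Pvalb gate and 0 of 435 nuclei of the Vip gate (exact upper limit 0.844%, or 0.690% at the floor of 3 counts) had a UMI of Lhx6, against 0.160% of the Excitatory gate, which should lack it. When each nucleus was thinned to 300 UMIs, which 842, 310, 386 and 12303 nuclei of these gates could be, the shares were 1.73%, 1.33%, 0% and 0.0509%. At this depth a UMI of Lhx6 was thus absent from most nuclei of the gates where its level was highest.

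The level of Lhx6 was not the same in the 2 sets of libraries. In the Sst gate it was 0.341 in set 1 (17 UMIs) and 0.913 in set 2 (45 UMIs), a ratio of 2.68 (1.5 to 5.0). In the Pvalb gate it was 0.290 and 0.616, with a ratio of 2.12 (0.760 to 7.32). The highest Sst gate library of set 1, at 0.447, was above only the lowest of set 2, at 0.422. The sets match the methods in number, but animal, injection and library preparation cannot be told apart between them.

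**Figure D2:**
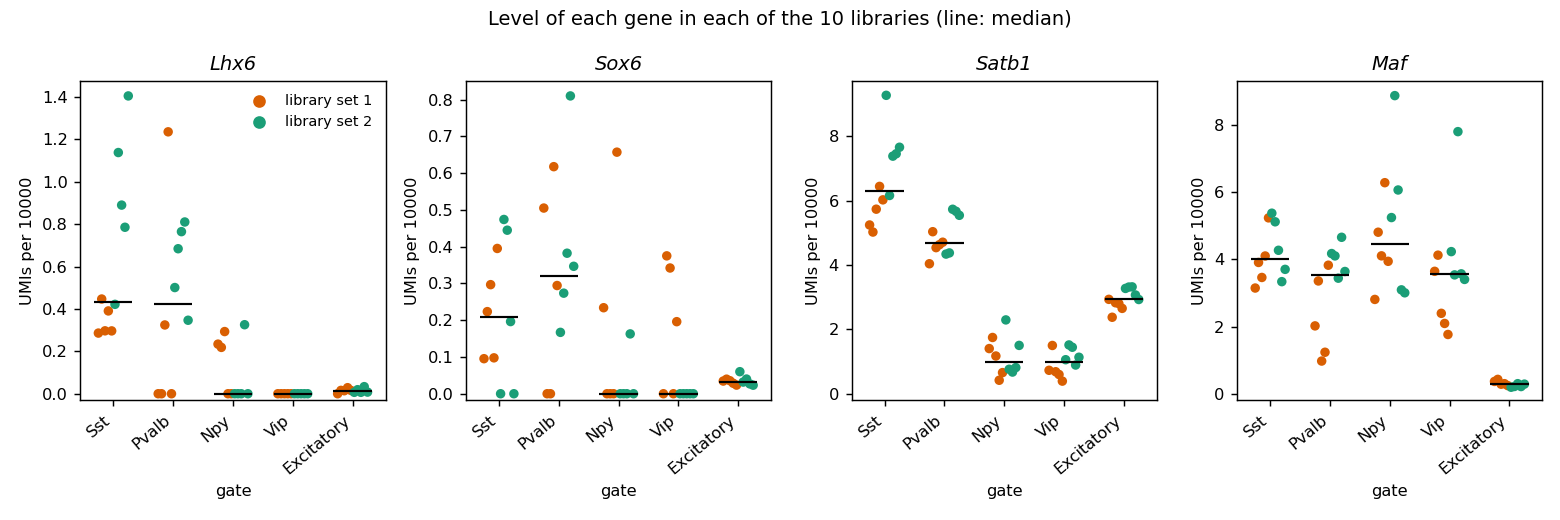
Level of each gene (UMIs per 10000 UMIs) in each of the 10 libraries, by gate, with the 2 library sets in separate colours and a line at the median. The Lhx6 level of the Sst gate ran from 0.286 to 1.4 over libraries and stayed at 0 in every library of the Vip gate, and the Satb1 levels of the Sst and Pvalb gates lay above those of the Vip gate in all 10 libraries.

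Lhx6 lies at chr2:36081953-36105408 on the minus strand (GRCm38, GENCODE M21). The bases before its first start site are shown because they lie in the region with the smallest p around the gene, and the centre of a region farther along because it was the most strongly read of the regions called around Lhx6 that lie outside the gene. Capitals mark matches to 1 of 3 motifs searched on both strands, TAATTA (a homeodomain core), AACAAT or ATTGTT (a Sox core) and TGCTGA or TCAGCA (a Maf recognition core), which do not overlap in these windows. The first line holds the 250 bases before the start, chr2:36105409-36105658, minus strand, from RefSeq (GRCm38.p6), and the second the central 300 bases of the intergenic region, chr2:36011381-36011680, plus strand.
Lhx6 promoter: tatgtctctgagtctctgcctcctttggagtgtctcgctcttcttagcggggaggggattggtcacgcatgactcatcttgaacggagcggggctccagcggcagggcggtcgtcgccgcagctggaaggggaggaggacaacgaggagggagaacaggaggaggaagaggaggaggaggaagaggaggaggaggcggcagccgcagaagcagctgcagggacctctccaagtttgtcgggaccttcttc
Lhx6 distal region: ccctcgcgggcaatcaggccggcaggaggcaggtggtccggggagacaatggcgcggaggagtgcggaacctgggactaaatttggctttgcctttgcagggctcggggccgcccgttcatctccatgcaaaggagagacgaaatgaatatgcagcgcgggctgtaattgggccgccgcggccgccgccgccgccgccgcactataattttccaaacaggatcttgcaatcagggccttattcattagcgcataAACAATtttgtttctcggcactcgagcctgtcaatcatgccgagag
The promoter held none of the 3 motifs and the distal region held 1 Sox core. Of the central 300 bases of 323360 regions, 10.7% held a Sox core, 4.91% a homeodomain core and 28.0% a Maf core.

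Chromatin at the start of Lhx6 was open in SST and PV nuclei and nearly closed in VIP nuclei. The region over the first start site (chr2:36105106-36105881, first exon with 5′ UTR and coding sequence) had 39 and 32 reads in the SST samples, 22 and 36 in the PV samples and 1 in each VIP sample, of 1801883 to 2256073 reads a sample. The log2 difference between the mean of SST and PV and VIP was 4.97 ± 0.62, a 31.3-fold change. Its adjusted p was 7.9e-06 by the quasi-likelihood test of edgeR across all 40338 regions tested. Here and below, ± gives an approximate standard error, worked back from the test statistic. Against VIP, SST alone gave 5.04 ± 0.66 and PV alone 4.90 ± 0.67, with the same VIP samples in both. All 4 SST and PV samples were far above both VIP samples, and the peak lists held a peak there in each of the 4 and in neither VIP sample. In such bulk samples, fewer open nuclei and less opening in each nucleus cannot be told apart. The overlapping region just inside the gene (chr2:36104547-36105328) had 25, 30, 15, 15, 0 and 1 reads in the same order of samples, SST, PV and VIP, with a difference of 5.15 ± 0.72 and an adjusted p of 2.4e-05. Both regions share 223 bases, so their reads are not independent. The difference of the second was 4.28 without replicate 1 of VIP and 7.34 without replicate 2, which leaves only the VIP sample at 0, so its size is not well set.

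A coding exon 13.8 kb into Lhx6 (chr2:36091175-36092035) had 21 and 30 reads in SST, 19 and 24 in PV and 2 and 0 in VIP. The difference was 4.50 ± 0.67 with an adjusted p of 4.2e-05 by edgeR, and no sample of SST or PV came near the VIP samples. It was 3.40 without replicate 2 of VIP, the sample at 0, and 7.58 without replicate 1. The intergenic region whose centre is printed above (chr2:36011019-36012042), 93.9 kb past the Lhx6 start and 31.6 kb from the start of Ttll11, its nearest coding gene, was open in every sample. It had 62 and 99 reads in SST, 86 and 78 in PV and 25 and 40 in VIP, 1.45 ± 0.27 higher on the log2 scale (2.73-fold, adjusted p = 3.3e-04). Here both VIP samples lay below all 4 SST and PV samples, but VIP kept peaks in both samples. The calls at these 4 regions held under every alternative tried, though the sizes moved as given. Another start-site region (chr2:36103030-36104103) had few reads, 5, 7, 13, 10, 2 and 2, and its call (2.11 ± 0.63, adjusted p = 0.010) was lost in 6 alternatives, with DESeq2 (adjusted p = 0.24), with no filter (0.13) and without either PV (0.099 and 0.050) or either VIP sample (0.10 and 0.15). The last start-site region, 11.2 kb into the gene, had too few reads to be tested, with 12, 5, 4, 4, 0 and 1.

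Around Lhx6, 34 regions were listed, of which 13 had enough reads to be tested. Of these, 8 were higher and 1 was lower in the mean of SST and PV than in VIP, where 24.0% of all tested regions were called higher and 24.9% lower. A region passes the read filter more easily where 1 group is high, so the 13 are not a sample of the 34. The 4 coding genes Morn5, Mrrf, Ndufa8 and Rbm18 lie in the same window, and no measurement here ties a region to a gene. Between SST and PV, 1 region was called, an intergenic one 93.3 kb before the start and 31.8 kb from Ptgs1, with 28 and 16 reads in SST, 8 and 3 in PV and 6 and 5 in VIP (1.86 ± 0.55, adjusted p = 0.044). That call was lost in 6 alternatives, among them DESeq2 (adjusted p = 0.37) and the fits without replicate 1 of SST (0.18), replicate 1 of PV (0.068, at a difference of 2.68) or replicate 2 of PV (0.30). Across all tested regions 3.96% were called higher and 4.33% lower in SST than in PV, but 0.114% and 0.0449% with DESeq2.

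Sox6 was low in every gate and was highest in the Pvalb, Sst and OPC gates, whose intervals overlapped. In the Pvalb gate 16 UMIs gave a level of 0.344 (0.197 to 0.559), with libraries from 0 to 0.810 and a median of 0.321. In the Sst gate 23 UMIs gave 0.232 (0.147 to 0.348), with libraries from 0 to 0.474 and a median of 0.210. In the Vip gate 3 UMIs gave 0.0850 (0.0175 to 0.249). The libraries of the 3 gates overlapped, and 7 libraries of the Vip gate were at 0. The Pvalb to Vip ratio was 4.05 (1.16 to 21.7), but 3.12 (0.841 to 17.2) without shared barcodes, and the Sst to Vip ratio was 2.73 (0.824 to 14.2). The Sst and Pvalb gates could not be told apart (0.674, 0.341 to 1.36). The Npy gate stood at 0.108 and the Gad gate, with the limit given above, at 0.0674.

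Outside the interneuron gates Sox6 was measured best in the Excitatory gate, at 0.0346 (49 UMIs), below the Sst gate by a ratio of 6.70 (3.90 to 11.2) and below the Pvalb gate by 9.95 (5.28 to 17.8). The OPC gate stood at 0.229, on 3 UMIs (0.0473 to 0.670). Astrocytes, gated by Slc1a3, Aqp4 and 5 other genes, stood at 0.149 on 14 UMIs, 4.32-fold above the Excitatory gate (2.20 to 7.95). Barcodes of 200 or fewer UMIs stood at 0.115, which is within the intervals of the Vip, Npy, astrocyte and OPC gates. Of nuclei, 4.35% had a UMI of Sox6 in the Pvalb gate, 1.87% in the Sst gate, 0.690% in the Vip gate and 0.374% in the Excitatory gate, and after thinning 0.964%, 0.829%, 0.270% and 0.0983%. After thinning, the shares of the Sst and Pvalb gates were close, and their levels were not separable either.

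Sox6 lies at chr7:115470872-116038796, minus strand, a gene of 567925 bases, with the antisense genes Sox6os and Gm45025 inside it. How reads were assigned by strand is not given in the sources used here, so UMIs of these genes and of Sox6 may not be told apart. The centre of the called region closest to the first start site is shown, chr7:116040106-116040405, plus strand, which held none of the 3 motifs.
Sox6 upstream region: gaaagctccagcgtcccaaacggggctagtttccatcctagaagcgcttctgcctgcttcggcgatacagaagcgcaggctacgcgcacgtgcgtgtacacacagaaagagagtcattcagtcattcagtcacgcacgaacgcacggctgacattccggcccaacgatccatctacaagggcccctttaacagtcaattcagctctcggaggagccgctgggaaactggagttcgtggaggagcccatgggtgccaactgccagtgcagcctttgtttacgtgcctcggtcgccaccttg
This region (chr7:116039825-116040687) lies 1.46 kb before the Sox6 start, inside an intron of the neighbouring gene 1110004F10Rik, whose start is 859 bases away. It had 43 and 33 reads in SST, 59 and 39 in PV and 17 and 20 in VIP, a log2 difference of 1.35 ± 0.33 (2.55-fold, adjusted p = 0.0028 by edgeR). All 4 SST and PV samples were above both VIP samples, and all 6 samples had a peak. The call was lost with DESeq2 (adjusted p = 0.088), with no read filter (0.095) and without replicate 2 of VIP (0.050).

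Within Sox6, an intron region 372 kb from the start (chr7:115666528-115667568) had 13 and 10 reads in SST, 10 and 16 in PV and 0 and 5 in VIP. The difference was 2.37 ± 0.68 (adjusted p = 0.0083 by edgeR), a call lost with DESeq2 (adjusted p = 0.14), with no filter (0.15) and without replicate 1 of VIP, the sample at 0, where the difference was 1.38 (0.12). Without replicate 2 of VIP it was 6.62. An exon region 4.67 kb from the start (chr7:116033510-116034734) had 14, 10, 8, 14, 5 and 4 reads (1.46 ± 0.54, adjusted p = 0.031), a call lost in 6 alternatives, with DESeq2 at an adjusted p of 0.36. The opposite direction was found 54.5 kb before Sox6, in an exon of 1110004F10Rik and 1700003G18Rik (chr7:116092889-116093689), with 173 and 187 reads in SST, 160 and 136 in PV and 275 and 365 in VIP (−0.83 ± 0.16, adjusted p = 3.7e-04). There VIP was above all 4 other samples, and the call held under every alternative. No start site of Sox6 itself could be tested, as the 3 regions that hold one had 0 to 11 reads a sample. Of the 81 regions around Sox6, 74 had too few reads and 7 were tested, of which 3 were called higher and 1 lower, beside 24.0% and 24.9% of all tested regions. Without replicate 2 of VIP, 1 was higher and 1 lower of 11 tested, where 9.49% and 13.7% of all regions were called.

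Satb1 was high in the Sst and Pvalb gates and low in the Vip and Npy gates. In the Sst gate 657 UMIs gave a level of 6.62 (6.13 to 7.15), with a lowest library of 5.03, a median of 6.31 and a highest of 9.28. Set 2 stood above set 1 there by a ratio of 1.32 (1.13 to 1.55), on 372 and 285 UMIs. In the Pvalb gate 227 UMIs gave 4.88 (4.27 to 5.56), with libraries at 4.04, 4.67 and 5.74. In the Vip gate 34 UMIs gave 0.964 (0.667 to 1.35), with libraries at 0.392, 0.975 and 1.52. No library of the Sst or Pvalb gate came down to the highest library of the Vip gate. The Satb1 level was 6.87-fold higher in the Sst gate than in the Vip gate (4.87 to 10.0) and 5.07-fold higher in the Pvalb gate (3.52 to 7.50), and without shared barcodes 8.32-fold and 5.52-fold. The sizes depended on the gates, with 13.4-fold and 8.97-fold in nuclei without a UMI of an excitatory marker, and 3.19-fold and 2.77-fold with gates at 1 UMI. The level was 1.36-fold higher in the Sst than in the Pvalb gate (1.16 to 1.58, in 9 of 10 libraries).

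Satb1 was not confined to these gates. The lymphocyte gate, of 76 nuclei that nearly all came from set 1, stood at 6.12 (4.10 to 8.79), and the Excitatory gate at 2.97 (2.88 to 3.06, 4205 UMIs). The Excitatory gate was 3.08-fold above the Vip gate (2.20 to 4.46), in 10 of 10 libraries. The Npy gate stood at 1.16, not separable from the Vip gate (1.2, 0.749 to 1.94). The Gad gate, where 62.5% of nuclei had an excitatory UMI, stood at 2.92, near the Excitatory gate. Oligodendrocytes stood at 1.41, microglia at 1.56, OPCs at 1.99, astrocytes at 0.833, mural nuclei at 0.619 and the endothelial gate at 0.478. Barcodes of 200 or fewer UMIs stood at 2.83, close to the Excitatory gate and above the Vip gate.

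Among excitatory nuclei split by layer markers, Satb1 was highest with layer 4 genes (Rorb, Rspo1, Scnn1a, Whrn), at 4.41 (3.90 to 4.97). Layer 5 nuclei stood at 3.37, layer 6 nuclei at 2.92 and upper layer nuclei at 2.15 (1.91 to 2.42). The ratio of layer 4 to upper layers was 2.05 (1.72 to 2.43), with layer 4 higher in 10 of 10 libraries, and 1.93 (1.59 to 2.35) without shared barcodes. By share of nuclei, 36.7% of the Sst gate, 38.8% of the Pvalb gate, 5.52% of the Vip gate and 21.8% of the Excitatory gate had a UMI of Satb1, and after thinning 16.9%, 11.9%, 1.96% and 8.11%. The endothelial gate, at 6.49% and 1.85% thinned with a median depth of 1171.5 UMIs, was at the share of the Vip gate.

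Satb1 lies at chr17:51736187-51833290 on the minus strand. The region shown covers a coding exon and its flank near the 3′ end of the gene, because it was read in every SST and PV sample and in neither VIP sample. Its central 300 bases are chr17:51740265-51740564, plus strand, with none of the 3 motifs and a run of CTG repeats in the exon.
Satb1 exon region: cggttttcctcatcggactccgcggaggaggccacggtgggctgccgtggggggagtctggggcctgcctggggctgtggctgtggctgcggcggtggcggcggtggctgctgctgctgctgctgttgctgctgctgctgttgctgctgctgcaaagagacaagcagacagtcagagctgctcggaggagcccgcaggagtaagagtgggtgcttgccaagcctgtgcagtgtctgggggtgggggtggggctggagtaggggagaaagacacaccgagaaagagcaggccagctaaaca
The whole region (chr17:51739846-51740983), 92.9 kb from the start, had 11 and 17 reads in SST, 16 and 13 in PV and 0 in both VIP samples. Against a floor of 3 reads over the VIP samples, this is at least 10.2-fold higher, with an adjusted p of 6.0e-05 by edgeR, and the call held under every alternative. Peaks were listed in the 4 SST and PV samples, with −log10 q from 9.92 to 12.3, and in no VIP sample.

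A second region of Satb1 went the other way. An exon region in the UTR 20.0 kb from the first start site (chr17:51812713-51813948) had 6 and 5 reads in SST, 8 and 4 in PV and 27 and 37 in VIP, a log2 difference of −2.32 ± 0.38 (4.99-fold lower, adjusted p = 1.1e-04 by edgeR). VIP was above all other samples, and the call held under every alternative. Peaks were listed there in all 6 samples, with −log10 q from 12.0 to 21.6 in SST and PV and 27.0 and 35.8 in VIP. The region over the first start site (chr17:51832052-51833558) had 9, 23, 16, 11, 19 and 11 reads and showed no difference beyond its error (0.08 ± 0.43, adjusted p = 0.89). There the SST samples held both the lowest and the highest count. An intergenic region 164 kb from the start did not differ either (0.00 ± 0.41, adjusted p = 0.99). The other 2 start-site regions had 0 to 11 reads a sample and were not tested, and 33 of the 37 regions around Satb1 were too thin to test. So of the 4 tested, 1 was higher, 1 was lower and 2 passed in neither direction, close to the shares over all tested regions (24.0% higher, 24.9% lower).

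Maf was measured in each of the Sst, Pvalb and Vip gates, and over all 10 libraries its level was not separable between the Vip gate and either of the others. In the Sst gate 414 UMIs gave a level of 4.17 (3.78 to 4.60), with libraries at 3.15, 4.01 and 5.38 (lowest, median, highest). The Pvalb gate stood at 3.38 (2.87 to 3.95), with libraries at 0.973, 3.54 and 4.66. The Vip gate stood at 3.57 (2.98 to 4.25), with libraries at 1.76, 3.56 and 7.81. The libraries of the 3 gates overlapped widely. The Sst to Vip ratio was 1.17 (0.955 to 1.44, higher in 6 of 10 libraries) and the Pvalb to Vip ratio 0.946 (0.743 to 1.21, higher in 4 of 10), so neither could be told from 1 over all libraries. The Sst to Vip ratio ran from 1.05 to 1.34 when 1 library was left out. It was higher still in set 1 and with gates at 3 UMIs, as given at the end, but not in set 2. The Sst gate stood above the Pvalb gate by a ratio of 1.24 (1.03 to 1.49), higher in 9 of 10 libraries. Without shared barcodes the ratios to the Vip gate were 1.23 (0.978 to 1.56) and 1.06 (0.810 to 1.39), and the Sst to Pvalb ratio was 1.16 (0.944 to 1.43), no longer separable from 1. In set 1 the Pvalb gate stood at 2.32 and in set 2 at 4.00, a ratio of 1.73 (1.2 to 2.54).

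The highest level of Maf was in the Npy gate, at 4.66 (3.99 to 5.41), 1.31-fold above the Vip gate (1.03 to 1.66) and not separable from the Sst gate (0.895, 0.748 to 1.08). The Sst, Pvalb, Vip and Npy gates were far above the Excitatory gate, which stood at 0.280. The ratios were 14.9 for the Sst gate, 12.0 for the Pvalb gate and 12.7 for the Vip gate (10.3 to 15.6), each in 10 of 10 libraries. The Gad gate, where 62.5% of nuclei had an excitatory UMI, stood between them at 1.58. Microglia, in which Maf is known, stood at 3.65 (2.87 to 4.57), near the Sst, Pvalb and Vip gates. Astrocytes stood at 1.16, OPCs at 0.765, oligodendrocytes at 0.401, endothelial nuclei at 0.205 and mural nuclei at 0.138, and barcodes of 200 or fewer UMIs at 0.824. Upper layer excitatory nuclei stood at 0.400 and layer 5 nuclei at 0.130, a ratio of 0.325 (0.188 to 0.545). A UMI of Maf was found in 24.3% of the Sst gate, 31.7% of the Pvalb gate, 19.5% of the Vip gate and 2.48% of the Excitatory gate, and after thinning in 10.8%, 9.26%, 9.53% and 0.820%, so the gap between Pvalb and Vip shares closed at equal depth.

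Maf lies at chr8:115682942-115707794, minus strand, with the antisense gene Gm15655 overlapping it. The centres of 2 intergenic regions before the gene are shown because SST and PV differed most there. The first is chr8:115747301-115747600 and the second chr8:115766394-115766693, both plus strand, and the second holds 1 Maf core in capitals.
Maf region lowest in PV: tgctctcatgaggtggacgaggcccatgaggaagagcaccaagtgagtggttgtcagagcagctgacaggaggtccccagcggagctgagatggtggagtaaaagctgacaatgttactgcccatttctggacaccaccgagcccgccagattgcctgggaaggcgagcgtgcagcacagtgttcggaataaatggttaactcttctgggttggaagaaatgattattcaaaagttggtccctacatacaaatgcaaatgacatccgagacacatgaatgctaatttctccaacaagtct
Maf region highest in PV: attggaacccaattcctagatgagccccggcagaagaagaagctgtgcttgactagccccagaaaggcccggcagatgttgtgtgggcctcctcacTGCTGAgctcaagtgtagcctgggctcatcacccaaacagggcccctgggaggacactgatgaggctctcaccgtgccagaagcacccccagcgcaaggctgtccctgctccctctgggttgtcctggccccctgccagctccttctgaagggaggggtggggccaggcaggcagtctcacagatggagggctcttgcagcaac
The first region (chr8:115747029-115747873), 39.7 kb before the start, had 17 and 18 reads in SST, 2 and 2 in PV and 15 and 19 in VIP. PV was 2.81 ± 0.62 below VIP on the log2 scale (adjusted p = 0.0014 by edgeR) and SST was 2.92 ± 0.61 above PV (adjusted p = 0.0092), while SST and VIP did not differ beyond error (0.10 ± 0.41, adjusted p = 0.87). Both PV samples lay far below the other 4, and only those 4 had a peak. The SST to PV call was lost with DESeq2 (adjusted p = 0.12) and with no read filter (0.18). Of all tested regions, 0.114% were called higher in SST than in PV with DESeq2 and 0 with no read filter, so these losses are not particular to this region. The call was also lost without either PV sample, at differences of 2.89 without replicate 1 and 3.00 without replicate 2.

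The second region (chr8:115766138-115766949), 58.7 kb before the start, showed PV as the high group. It had 6 and 6 reads in SST, 14 and 17 in PV and 4 and 4 in VIP, with PV 2.12 ± 0.55 above VIP (adjusted p = 0.0042 by edgeR). Among the alternatives that kept all 6 samples, this PV to VIP call was lost with DESeq2 and with no read filter. It was also lost without replicate 2 of PV and without replicate 2 of VIP. SST against PV gave −1.49 ± 0.51, which did not pass (adjusted p = 0.075). Both PV samples were above all 4 others, although a peak was listed in both SST samples and in replicate 1 of VIP as well as in both PV samples. The call for the mean of SST and PV against VIP (adjusted p = 0.041) was lost in 9 alternatives, with the replicate block at an adjusted p of 0.058.

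At the start of Maf, chromatin was open in all 3 groups. The start-site region (chr8:115707472-115708378) had 39 and 39 reads in SST, 28 and 27 in PV and 53 and 85 in VIP, a log2 difference of −0.93 ± 0.26 (adjusted p = 0.0074 by edgeR). VIP was above the other 4 samples, but the 2 VIP samples were far apart, and without replicate 2 of VIP the call was lost (−0.76, adjusted p = 0.16). The neighbouring regions inside the gene gave −0.49 ± 0.26 (adjusted p = 0.13) and −0.31 ± 0.36 (adjusted p = 0.49). The first of these shares bases with the start-site region, and the second shares bases with the first. An intergenic region 110 kb past the start (chr8:115597315-115598085) was lower in SST and PV, with 14, 12, 16, 18, 30 and 42 reads (−1.13 ± 0.32, adjusted p = 0.0076), and lost its call without replicate 2 of VIP (adjusted p = 0.083). Of 41 regions around Maf, 34 were too thin to test, and of the 7 tested 1 was higher and 3 lower in the mean of SST and PV than in VIP, beside 24.0% and 24.9% of all tested regions. Without replicate 2 of VIP, 0 of 12 were called in either direction, where 9.49% and 13.7% of all regions were called higher and lower.

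**Figure D3:**
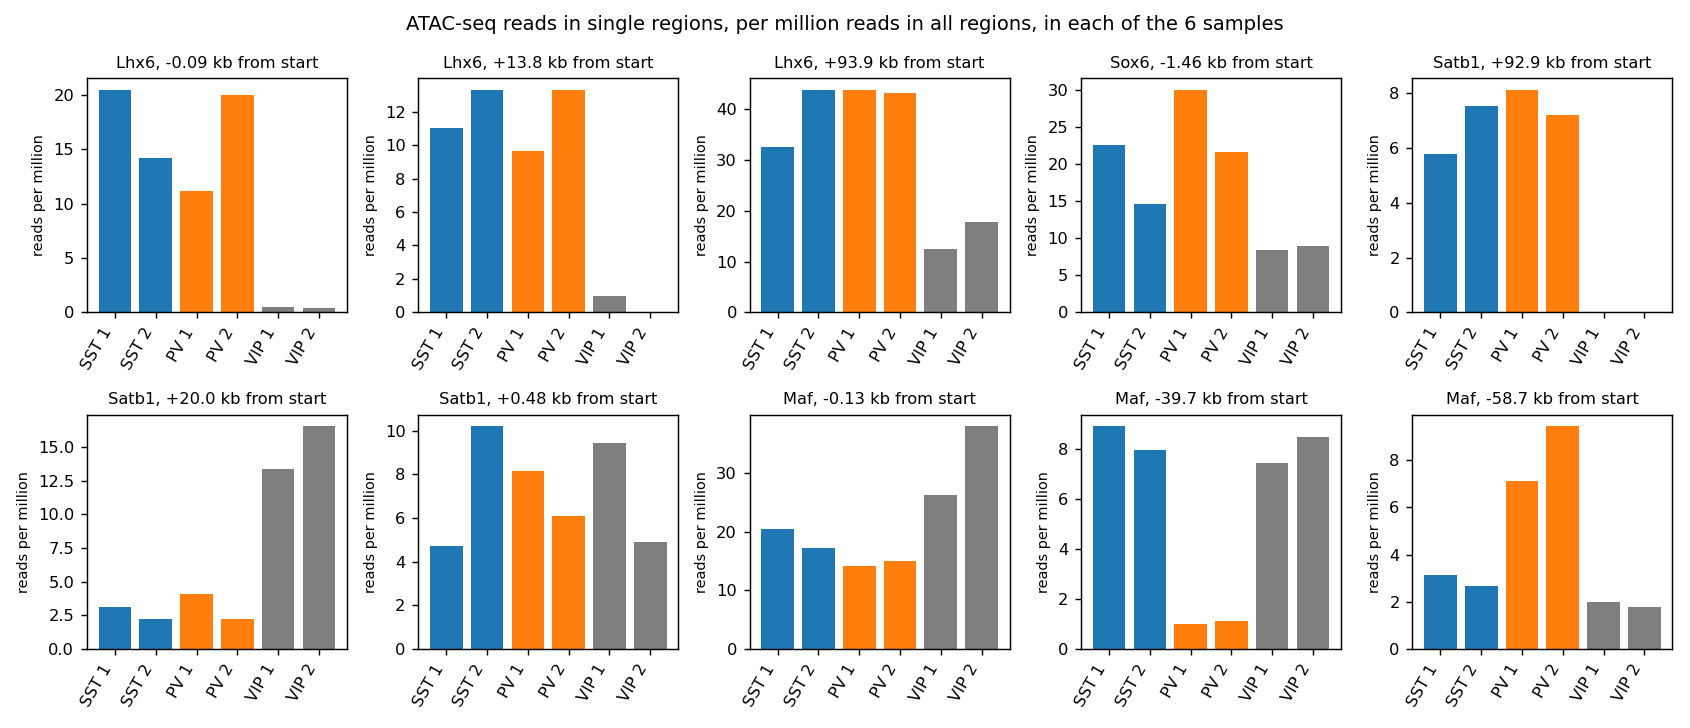
ATAC-Seq reads scaled to the sample's total in all regions (RPM), in each of the 6 samples, for 10 single regions near the 4 genes, with bars from 0 and titles giving the distance from the first start site along the gene. The start of Lhx6 was read in the 4 SST and PV samples and hardly in VIP, whereas the start of Maf was read in all 6 samples.

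**Figure D4:**
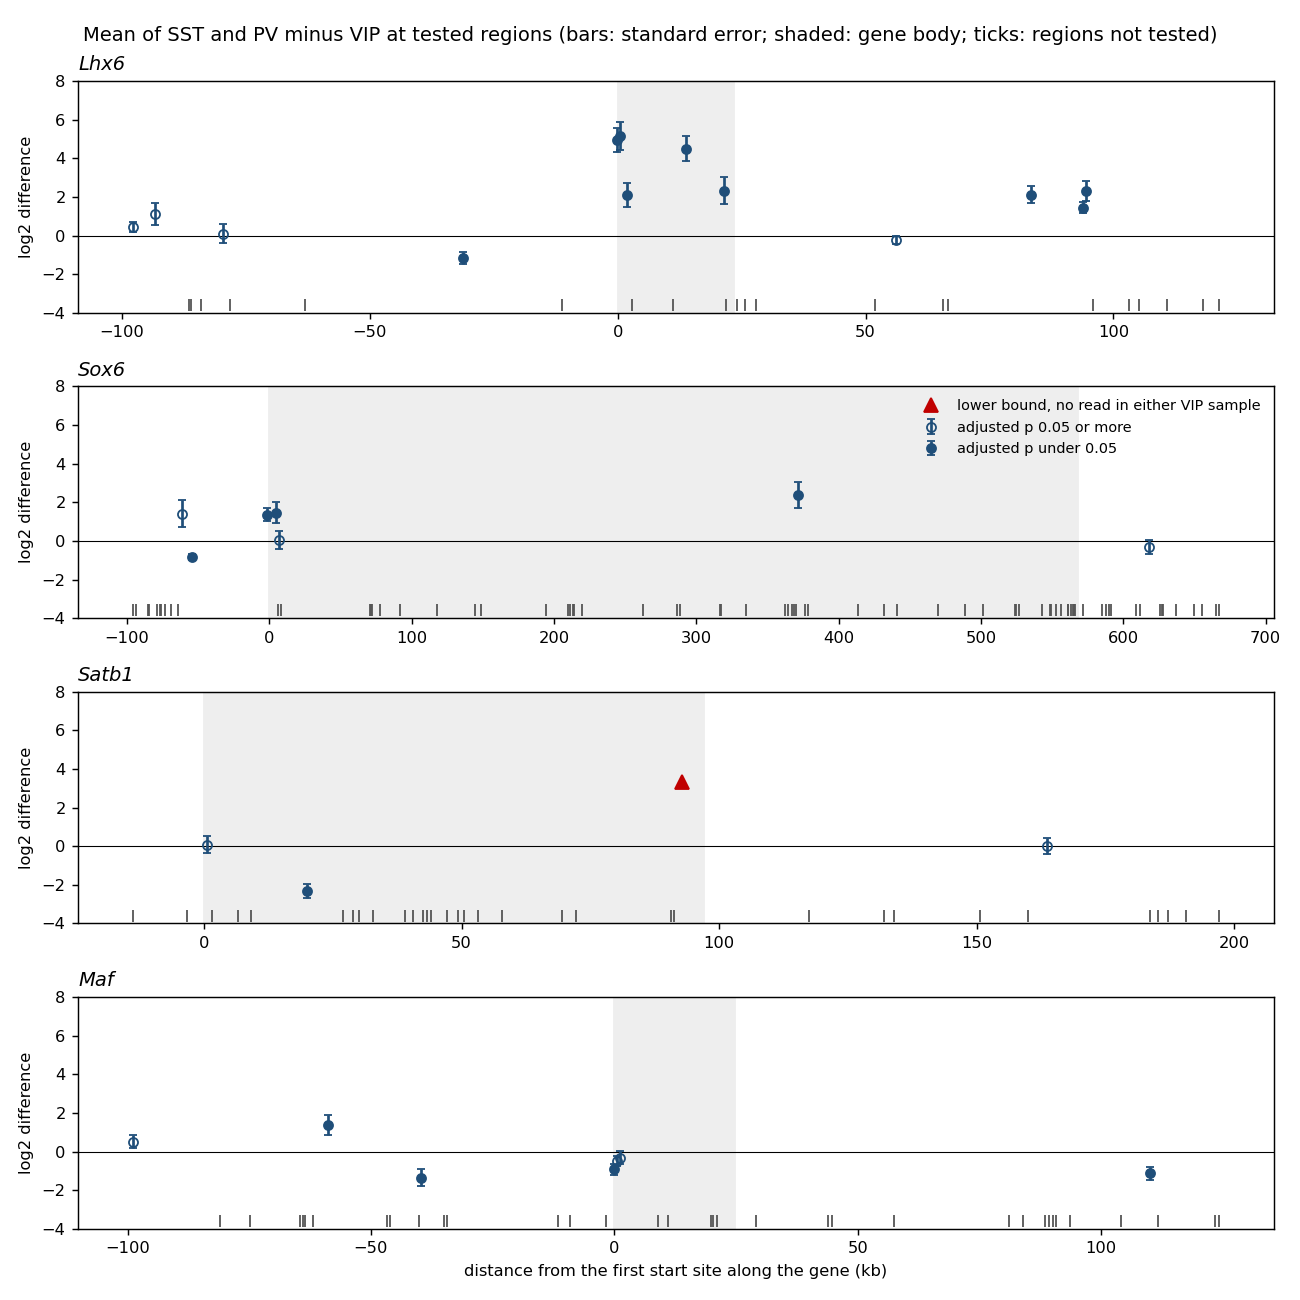
Log2 difference between the mean of SST and PV and VIP (points, with approximate standard errors worked back from the test statistic) for the tested regions. The horizontal axis is the distance in kb from the first start site along each gene, with the gene body shaded and ticks for regions too thin to test. The triangle marks the Satb1 region without reads in VIP at its lower bound of 10.2-fold, on the log2 axis.

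Over the windows as a whole, all 193 regions included, VIP stood apart from SST and PV for Lhx6 and Satb1, while SST and PV overlapped. The Lhx6 window held 249 and 275 RPM (reads scaled to a common library total) in SST, 255 and 277 in PV and 167 and 181 in VIP. The Satb1 window held 79.8, 76.7, 86.4, 77.7, 52.6 and 53.6, in the same order, with both VIP samples again the lowest. The Sox6 window held 221 to 252 in all samples, and the Maf window 125, 130, 110, 115, 132 and 150, so for these genes the groups overlapped or VIP was highest. These sums include the regions named above and are given as a description. In all, 31 of the 193 regions were tested and 162 were not, 103 held a peak in at least 1 sample, and 13 regions were called higher and 6 lower in the mean of SST and PV than in VIP, where 24.0% and 24.9% of all tested regions were called. Against VIP, SST alone gave 11 higher and 4 lower, where 17.8% and 18.4% of all tested regions were called, and PV alone gave 13 higher and 5 lower, where 24.6% were called each way. These comparisons share the VIP samples. The groups matched their labels, as reads near Sst were highest in both SST samples, near Pvalb in both PV samples and near Vip in both VIP samples. Near Gad2 the samples held 40.7 to 62.2 RPM, and near the excitatory marker Slc17a7 58.3 to 64.6. How much excitatory chromatin the samples held was not tested. None of the 287 GREs screened with the viral library lay within 100 kb of the 4 genes.

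**Figure D5:**
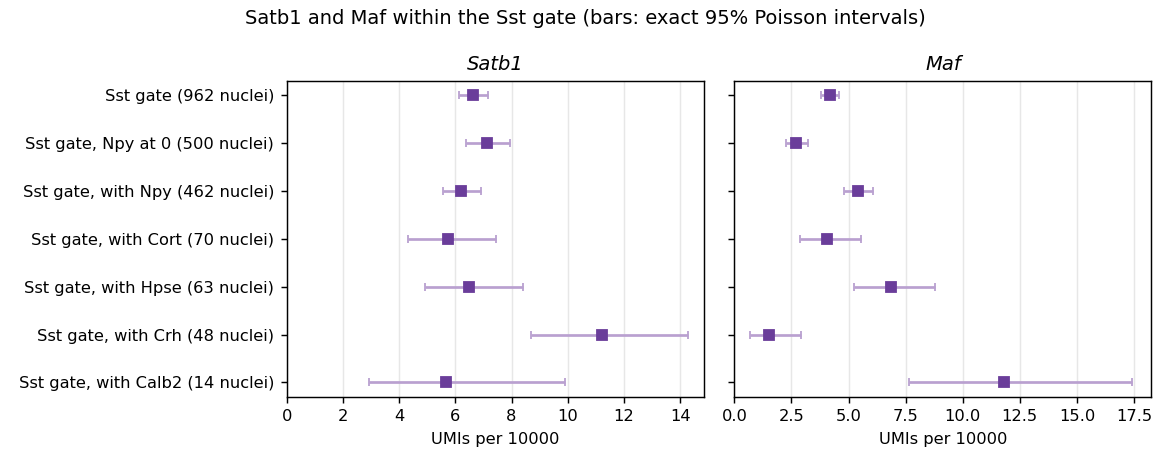
Levels of Satb1 and Maf (UMIs per 10000 UMIs) in the Sst gate and in its nuclei split by a UMI of Npy, Cort, Hpse, Crh or Calb2, with exact 95% Poisson intervals as bars. Maf stood at 5.42 in nuclei with Npy and 2.70 without, and Crh nuclei stood apart in both genes, in opposite directions.

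The Sst gate was also divided by Npy. Nuclei with a UMI of Npy, a neuropeptide found in part of the SST neurons, had a Maf level of 5.42 (291 UMIs) and those without had 2.70 (123 UMIs), a ratio of 2.01 (1.62 to 2.5), in 9 of 10 libraries, and 2.13 (1.66 to 2.75) without shared barcodes. Median depth was 1029.5 and 710.5 UMIs, and the share with a UMI of Maf was 33.8% and 15.6%, or 13.4% and 8.17% after thinning. Satb1 in the same split was 6.21 and 7.12, a ratio of 0.872 (0.746 to 1.02), and Lhx6 was 0.764 and 0.461, a ratio of 1.66 (0.957 to 2.95). Sox6 gave a ratio of 2.41 (0.905 to 7.45) on 17 and 6 UMIs, and 6.06 (1.39 to 55.0) on 14 and 2 UMIs without shared barcodes. Against the Vip gate, the nuclei without Npy stood at 0.756 times its Maf level (0.585 to 0.977), and at 0.768 times (0.570 to 1.03) without shared barcodes.

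Nuclei of the Sst gate with a UMI of Crh, a stress hormone gene, numbered 48. Their Satb1 level was 11.2 (8.68 to 14.3), 1.69 times that of the whole gate (1.29 to 2.18) and higher in 9 of 10 libraries, and their Maf level was 1.53 (9 UMIs), 0.367 times that of the gate (0.166 to 0.703) and higher in 0 of 10. In the 63 nuclei with Hpse, the heparanase gene, Maf stood at 6.84, a ratio of 1.64 (1.23 to 2.15), and Satb1 at 6.50, a ratio of 0.981 (0.735 to 1.29). In 14 nuclei with Calb2, the calretinin gene, Maf reached 11.8 on 25 UMIs (7.64 to 17.4), and 12 of these nuclei came from set 2. Sox6, in 70 nuclei with Cort, a peptide close to Sst, had 7 UMIs and a ratio of 3.14 (1.14 to 7.56). These 7 splits were all examined for each gene and those not named had intervals that included 1. The whole gate includes the nuclei it is compared with, which pulls each ratio toward 1.

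Counted per nucleus, 514 of the 962 nuclei of the Sst gate (53.4%) had a UMI of at least 1 of the 4 genes, 118 had exactly 2, 15 had 3 and 0 had all 4. Satb1 and Maf were the usual pair, in 98 nuclei. In the Pvalb gate 191 of 322 (59.3%) had at least 1, with Satb1 and Maf together in 45, and in the Vip gate 106 of 435 (24.4%), with this pair in 6. The Excitatory gate had 24.2%, nearly all of it Satb1. After thinning the shares were 27.7%, 21.9%, 11.6% and 9.01%, with the Vip and Excitatory gates the lowest of these as before. At these depths a missing UMI says little about a nucleus.

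Other regulators were read from 2 lists, 16 genes of the medial eminence and of forebrain interneurons in general, and 8 genes known from the caudal eminence. Of the 4 members, Lhx6, Satb1 and Sox6 had ratios of at least 2 in the Sst over the Vip gate, that of Sox6 with an interval that included 1, and 0 were 2-fold lower, where 10.4% of the 9074 genes with at least 20 UMIs over both gates were higher and 5.00% lower. Of the first list, 12 genes had enough UMIs, 3 were higher, among them Cux2, and 2 were lower (Dlx2 and Dlx6os1), with a median log2 ratio of −0.20 against 0.06 over all genes. So the wider list did not share the direction of Lhx6 and Satb1. Of the caudal list, 7 genes had enough UMIs and 6 were lower, with a median log2 ratio of −4.92. Prox1, the homeodomain factor of VIP neurons, stood at 3.00 in the Vip gate and 0.0302 in the Sst gate, a ratio of 0.0101 (0.00204 to 0.0302), and Htr3a, a serotonin receptor subunit of caudal interneurons, and Nr2e1, an orphan nuclear receptor, gave ratios of 0.0119 and 0.0260. In the Pvalb against the Vip gate, Lhx6 and Satb1 of the 3 members with enough UMIs were higher, where 12.3% of genes were higher and 8.31% lower, and the lists gave 3 higher and 3 lower of 11 and 7 lower of 7. Between the Sst and Pvalb gates, 0 of the 4 members differed by 2-fold, where 8.23% of genes were higher and 5.15% lower. Against the Excitatory gate all 4 were higher in the Sst gate, where 8.78% of genes were higher and 11.6% lower.

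Cux2, a homeodomain factor of upper layer and some interneuron cells, gave a Sst to Vip ratio of 4.21 (1.84 to 11.9), and Dlx6os1, a noncoding transcript of the Dlx5 and Dlx6 locus, gave 0.148. Nkx2-1, the factor upstream of Lhx6 in the embryo, had 0 UMIs in the Sst, Pvalb and Vip gates, and Lhx8, the closest paralog of Lhx6, had 0 in the Sst gate and 1 in the Vip gate.

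By likeness over the 13 gates (Pearson correlation of log2 level plus 0.1, a description over points that share libraries), the genes closest to Lhx6 among 10533 were Crhbp (0.944), Lypd6b (0.927) and Cacna2d2 (0.903). Those closest to Satb1 were Chrm2 (0.924), Ctr9 (0.899) and Gfod1 (0.886), and those closest to Maf were Arl4c (0.924), Ubash3b (0.917) and Uqcc1 (0.901). For Sox6 they were Ap1b1 (0.886), Mdh2 (0.883) and Erlec1 (0.867). Both Lhx6 (129 UMIs over the gates) and Sox6 (123 UMIs) were sparse, below the 200 UMIs required of the ranked genes. Crhbp, a binding protein of the hormone encoded by Crh, had a level of 3.43 in the Sst gate, 0.667 in the Pvalb gate and 0.0283 in the Vip gate. Among the members, Lhx6 was closest to Sox6 (0.702), and the lowest value was between Sox6 and Satb1 (0.335).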

How the data were processed

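Nuclei of V1 (1 sample, 10 libraries) and 6 ATAC-Seq samples (SST, PV and VIP, 2 each) were analysed. For ATAC-Seq the authors trimmed reads with Trimmomatic 0.33, aligned them to mm10 (GRCm38) with Subread 1.4.6-p3, removed duplicates with SAMtools, and called peaks with MACS2 and HOMER per replicate, keeping peaks called by both. The deposited peak lists give a −log10 q-value, and the deposited count table, made with featureCounts, holds raw read counts without normalization. The deposited binary table marks peaks per sample and also holds the authors' conservation score, which entered no result. The authors' fold and specificity columns for the screened elements were not used. For nuclei, the deposited counts are UMIs aligned by the authors to GRCm38 with viral barcodes added.

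Read counts were tested with edgeR 4.0.16 in R 4.3.3 (quasi-likelihood, TMM, filterByExpr) over all 6 samples, without the replicate number as a block. P-values were adjusted (Benjamini-Hochberg) over 40338 regions, with calls at 0.05. The standard errors after ± are approximate, each being the log2 difference divided by the square root of its F statistic. On data simulated for the mean of SST and PV against VIP over these regions, the fit recovered 80.5% of 200 regions changed 4-fold, with 3 false calls. The simulation gave all regions a common spread, and in the data 24.0% and 24.9% of regions were called. These rates therefore need not carry over to the data. Alternatives were DESeq2 1.42.0, no TMM, no filter, windows of 20 and 200 kb, the replicate block and leaving out each sample. The replicate numbers do not pair the samples.

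Of 47348 barcodes, the 32335 above 200 UMIs entered, counted without the 1164 viral columns. No doublet caller was run, and 23 nuclei with 2 or more UMIs of 2 of Sst, Pvalb and Vip were left out of the gates. The layer 6 list held Foxp2, Syt6, Rprm, Hs3st4 and Tle4. Intervals are exact, at 95%. Shares were given as counted and as computed for nuclei thinned to 300 UMIs. Calculations used Python 3.11.15. Annotation was GENCODE M21, and sequences came from that genome and RefSeq, whose promoters were checked against it, 500 of 500 being identical; 3 of the 4 genes have a promoter entry.

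The genes, lists and tests were chosen with earlier results of these data known. Named were the 4 genes, a paralog, the 3 listed genes with the largest Sst to Vip ratio in either direction, the 3 genes most like each member over gates, the regions that hold a start site, and the 4 regions of each window with the smallest p in the mean of SST and PV against VIP. Dlx2 and the Lhx6 region that differed between SST and PV were singled out with their values known. Some genes that this rule would name are not reported here. The counts without nuclei whose barcodes recur between libraries were added after the data were seen.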

Additional observations from a re-analysis of the deposited data

Results flagged for a closer look

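In 3 of 20 groups of 10 library levels (5 gates for each of the 4 genes), the highest library stood apart from the others by Dixon's ratio, where chance gives about 1 group in 20. In the Npy gate, Sox6 stood at 0.657 UMIs per 10000 in library 5 of set 1, with the next library at 0.234. In the Excitatory gate, Sox6 stood at 0.0600 in library 1 of set 2, with the next at 0.0400. In the Vip gate, Maf stood at 7.81 in library 3 of set 2, with the next at 4.23. Both Sox6 values rest on few UMIs.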

How the results depend on the processing

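No call changed direction, while the uncalled Satb1 regions at the first start site (−0.45 to 0.51, log2) and 164 kb from it (−0.42 to 0.32) and the Maf ratio of the Pvalb over the Vip gate (0.862 to 1.08) changed sign when a sample or library was left out. Of the alternatives for counts of regions 66 stayed within 1.5 times the main count, 8 rose above it and 22 fell below it. Regions higher in the mean of SST and PV than in VIP were 13, and 20 within 200 kb, 8 with DESeq2 and 8 to 18 when a sample was left out (8 without replicate 2 of VIP). Lower were 6, and 2 within 20 kb, 11 within 200 kb and 3 to 8 when a sample was left out (3 without replicate 2 of VIP). For SST against VIP the 11 higher became 7 within 20 kb, 18 within 200 kb, 5 with DESeq2, 4 with no filter and 7 to 16 when a sample was left out (7 without replicate 1 of VIP), and the 4 lower became 1 within 20 kb, 9 within 200 kb, 1 with no filter and 1 to 5 when a sample was left out (1 without replicate 2 of VIP). For PV against VIP the 13 higher became 8 within 20 kb, 20 within 200 kb, 6 with DESeq2, 5 with no filter and 9 to 19 when a sample was left out, and the 5 lower became 2 within 20 kb, 9 within 200 kb and 3 to 7 (3 without replicate 1 of PV). For SST against PV the 2 higher became 0 within 20 kb, 4 within 200 kb, 0 with DESeq2, 1 with no TMM, 0 with no filter and 0 to 2 (0 without either PV sample), and the 0 lower became 1 without replicate 1 of SST (0 to 1). The wider and narrower windows hold other numbers of regions, and DESeq2 and no filter tested 146 and 191 of the regions in place of 31 and adjusted p over more regions. Of all regions, 24.0% were higher and 24.9% lower in the mean of SST and PV, but 1.53% and 4.77% with DESeq2, 0.963% and 3.46% with no filter, and 9.49% to 22.2% and 13.7% to 28.4% when a sample was left out. For SST against VIP the shares were 17.8% and 18.4%, but 1.02% and 2.56% with DESeq2 and 0.626% and 1.64% with no filter. For PV against VIP they were 24.6% each way, but 1.54% and 4.14% with DESeq2 and 0.998% and 2.51% with no filter. For SST against PV they were 3.96% and 4.33%, but 0.114% and 0.0449% with DESeq2, and 0 of 310118 regions were called with no filter. Otherwise the cause was not tested.

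The replicate numbers do not pair the ATAC-Seq samples, as deviations from the group means correlated at 0.023 between SST and PV, 0.030 between SST and VIP and −0.037 between PV and VIP. With the replicate block, 12 regions were higher and 6 lower in the mean of SST and PV, 10 and 4 for SST against VIP, 13 and 5 for PV against VIP, and 2 and 0 for SST against PV, where 22.9% and 24.5%, 16.9% and 17.8%, 23.7% and 23.8%, and 3.08% and 3.25% of all tested regions were called.

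Of the ratios of levels, 136 stayed near the main value and 14 moved. Against the 3-count floor, the Lhx6 ratio of the Sst over the Vip gate, 7.35, was 4.72 without nuclei with an excitatory UMI, 2.06 in library set 1, 5.22 in set 2 and 5.89 to 7.14 without 1 library, where fewer UMIs raise the floor. That of the Pvalb over the Vip gate, 5.82, was 3.68, 1.75, 3.52 and 4.68 to 5.83, and 3.64 without shared barcodes. Satb1 in the Sst over the Vip gate, 6.87, was 3.19 with gates at 1 UMI and 13.4 without excitatory UMIs, and in the Pvalb gate, 5.07, it was 2.77 and 8.97. Maf in the Sst over the Vip gate, 1.17, was 1.53 with gates at 3 UMIs and 1.47 in set 1, both above the upper limit of the main interval. In set 2, which held the Vip gate library at 7.81, the ratio was lower than over all libraries. This ratio ran from 1.05 to 1.34 without 1 library. Maf in the Pvalb over the Vip gate, 0.946, was 0.716 as a mean over nuclei. For Lhx6 a mean over nuclei gave no value, as the Vip gate was at 0. Sox6 in the Pvalb over the Vip gate, 4.05, ran from 3.07 to 6.08 and in the Sst gate, 2.73, from 2.12 to 3.80 without 1 library, on 3 UMIs in the Vip gate.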
